A study of Danio rerio with 6 samples.

Results

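In proximal tubules dissected from gentamicin-injured zebrafish larvae, 129 genes were close to silent after DMSO and were read at a higher level after UPHD25. These genes were chosen by a rule on their CPM (a gene's share of the counts of its library, scaled with edgeR's TMM factors): a mean under 1 CPM over the 3 gent-AKI+DMSO libraries, at least 1 CPM in at least 2 of the 3 gent-AKI+UPHD25 libraries, and a UPHD25 level at least 2 times the DMSO level in each pair of libraries with the same replicate number. They were 129 of the 26081 genes with a count, and 1.37% of the 9434 genes with a mean under 1 CPM after DMSO. All larvae carried the transgene Tg(PT:egfp), which makes proximal tubule (PT) cells green, and all had acute kidney injury from a gentamicin injection at 3 dpf (gent-AKI). At 2 dpi the control group received 1% DMSO and the treated group 1 μM UPHD25 in 1% DMSO for 24 h, so that both groups shared the injury, the transgene and the solvent. Each library came from the GFP+ pronephros, the larval kidney, of a pool of 100 larvae (n = 3 pools per group), and uninjured larvae were not analysed here. The dissection took whole pieces of pronephros rather than sorted cells, so a library holds RNA of whatever cells came with the tubule.

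Because the rule used the same UPHD25 and DMSO libraries, the difference between the groups is built into these genes, and their levels are given as a description without a test. In the comparison over all genes, edgeR's quasi-likelihood test gave 0 of 17497 genes (0%) at a Benjamini-Hochberg adjusted p under 0.05, with 2186 genes at an unadjusted p under 0.05, and DESeq2's Wald test gave 639 of 18479 genes (3.46%). Of the 129 genes, 89 passed edgeR's filter on low counts and 0 were called by it, while DESeq2 called 58 of the 128 to which it gave an adjusted p. Nothing is read from these counts, since the rule used that contrast.

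UPHD25 is the prodrug of PTBA (phenylthiobutanoic acid), an inhibitor of histone deacetylases. These enzymes take acetyl groups off histones, and acetylated histones are typical of open, transcribed chromatin. Most of the named genes described here are known from other organs. Photoreceptors of the retina turn light into an electrical signal with opsins, a G protein cascade and cyclic nucleotide-gated channels, the retinal pigment epithelium regenerates their chromophore, and the fibre cells of the lens are packed with crystallins and coupled by connexins. Neurons are set apart by homeobox, POU and bHLH transcription factors during development and by ion channels, transmitter receptors and synaptic proteins when mature.

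Genes carry Ensembl identifiers in the deposited counts, and a table of zebrafish gene names gave a symbol to 117 of the 129. Of these, 99 were gene names and 18 were placeholders, and 12 identifiers had no symbol. A symbol in capitals can stand for more than 1 zebrafish copy of a gene, which was so for 25 of the 129, and reads from near-identical copies may have been split between them. By what the named genes are known for, 17 belonged to photoreceptors and the retina, 7 to the lens, 13 were transcription factors of the nervous system, 32 were signalling proteins, channels or synaptic proteins of neurons, and 30 had other roles. This grouping was made by hand after the values were seen.

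Across the 129 genes the mean level after DMSO ran from 0.0391 to 0.998 CPM and the mean after UPHD25 from 0.856 to 9.05 CPM. The ratio of the means ran from 2.4 to 53.9, with a median of 4.07. These are low levels: 3 counts stood for 0.102 to 0.281 CPM, and 17 of the genes had 0 counts in at least 1 DMSO library. After UPHD25, 63 genes were at 1 CPM or more in all 3 libraries and 66 in exactly 2. The UPHD25 and DMSO libraries did not overlap for 93 genes and overlapped for 36, since the rule compares libraries only within a pair. Over all genes tested by edgeR, 9.68% were higher after UPHD25 without overlap. That share covers only genes that passed edgeR's filter, as 89 of the 129 did. The doubling in each pair that the rule asks for also favours non-overlap. Nothing is therefore read from such counts, here or by group. Summed over the 129 genes, the level was 66.3, 59.5 and 78.3 CPM in DMSO replicates 1, 2 and 3, and 230, 241 and 522 CPM in UPHD25 replicates 1, 2 and 3. In this sum each UPHD25 library thus exceeded each DMSO library, with UPHD25 replicate 3 far above the other two.

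**Figure D1:**
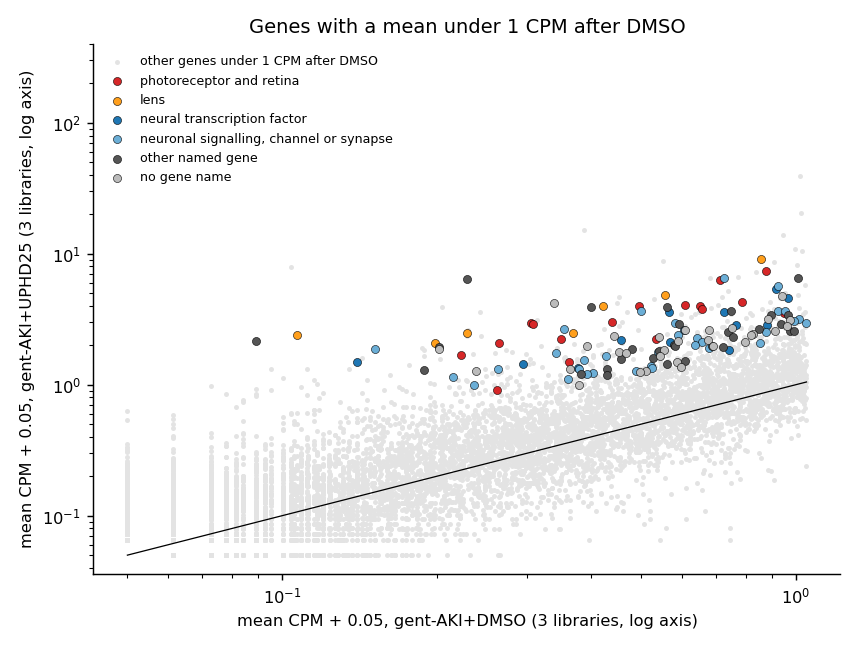
Mean CPM after UPHD25 (vertical, 3 libraries) against mean CPM after DMSO (horizontal, 3 libraries) for each gene with a mean under 1 CPM after DMSO, both plus 0.05 on log axes. Grey points are genes outside the rule, coloured points are the 129 genes by group, and the line marks equal levels. The 129 genes lie above the line, and their ratios of means without the added 0.05 were 2.4 to 53.9. Some grey points lie as far above the line without meeting every condition of the rule.

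Genes just inside and just outside each limit lay close together. For the mean after DMSO, CALB1 (0.9977 CPM) and NETO1 (0.9653 CPM) were inside, and cacna1db (1.0151 CPM) and a gene with a placeholder symbol (1.0173 CPM) were outside. For the second highest UPHD25 library, rgs9bp and NPTX2 were inside at 1.0273 CPM, and csmd1a and CABP7 were outside at 0.9943 CPM. For the lowest of the 3 pair ratios, NETO1 (2.0161) and ENSDARG00000112056 (2.0253) were inside, and ENSDARG00000013390 and drd4a were outside at 1.9951. Among the genes just outside, the calcium channel gene cacna1db and the dopamine receptor gene drd4a are known from neurons too. A further 143 genes met the other conditions with a lowest pair ratio from 1.5 to under 2.

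The libraries differed in ways that bear on these genes. Counts on genes ran from 10781071 to 30750026, and both replicate 1 libraries were the deepest. UPHD25 replicate 3 had a TMM factor of 1.22 against 0.901 to 0.997 for the other libraries, and it held the highest UPHD25 level for 100 of the 129 genes. Of the markers that define the PT, SLC20A1 (832 CPM), LRP2 (92.7 CPM) and CUBN (28.9 CPM) were read after DMSO, while SLC13A1 was at 0.788 CPM. The summed PT list was nearly equal between the groups, at 1290 to 1770 CPM after DMSO and 1310 to 1630 CPM after UPHD25. Markers of other organs were present in both groups, led by skeletal muscle at 37000 to 45700 CPM after DMSO and 16800 to 32200 CPM after UPHD25. In pair 3 the glia, intestine and epidermis lists were higher after UPHD25, by ratios of 3.07, 2.45 and 2.13. Their ratios of means were 1.91, 1.41 and 1.34, and 1.23, 0.806 and 0.879 without UPHD25 replicate 3. The glia list was also higher in pairs 1 and 2, at ratios of 1.22 and 1.33. In pair 2 the intestine and epidermis lists were lower, at 0.683 and 0.765, and in pair 1 they were at 1.01 and 1.06. The liver, exocrine pancreas and leukocyte lists were lower in pair 3, at ratios of 0.47, 0.378 and 0.243. In such bulk samples, fewer cells of a type and less RNA per cell cannot be told apart.

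**Figure D2:**
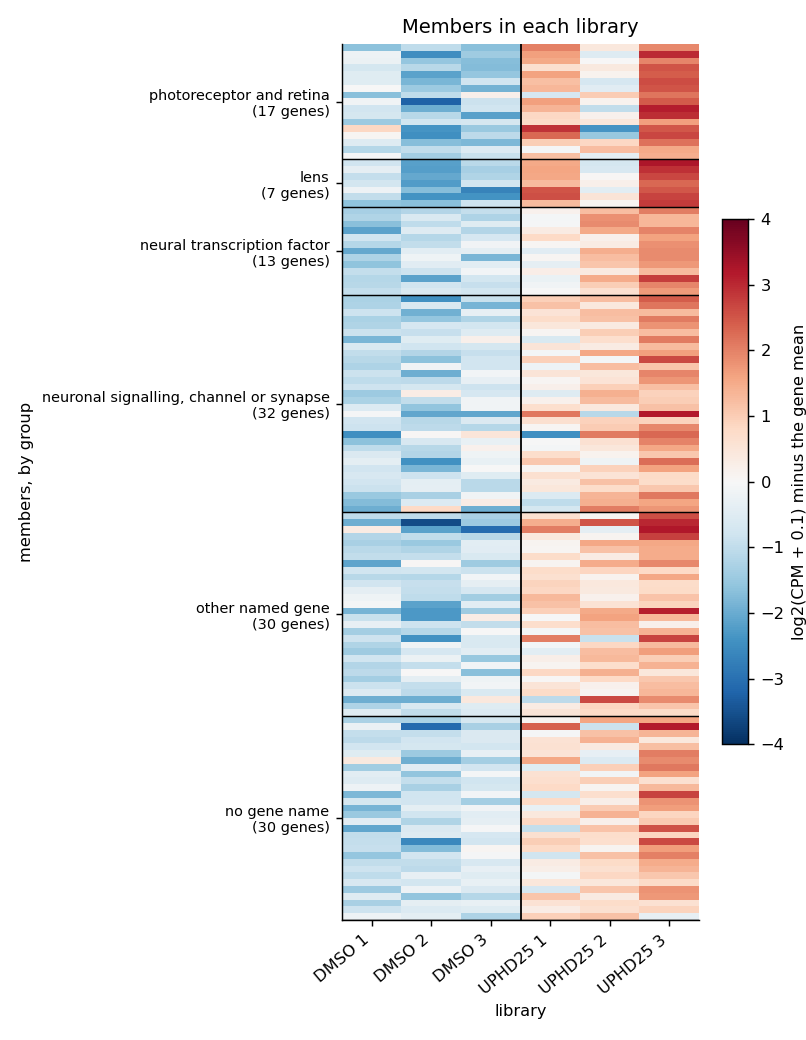
Each of the 129 genes (rows, by group) in the 3 DMSO and 3 UPHD25 libraries (columns), as log2(CPM + 0.1) minus the mean of the gene. Red is above and blue below the gene's mean, and the groups were made by hand after the values were seen. The photoreceptor, retina and lens genes are palest in UPHD25 replicate 2 (lowest UPHD25 library for 22 of 24), and the neural genes in UPHD25 replicate 1 (lowest for 34 of 45).

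The 17 genes of photoreceptors and the retina had a median ratio of means of 7.25, above the 4.07 of all 129 genes. Their summed level was 11.4, 5.24 and 7.17 CPM in the DMSO libraries and 49.2, 20 and 98.9 CPM in UPHD25 replicates 1, 2 and 3. UPHD25 replicate 2 was lowest for 15 of the 17, and UPHD25 replicate 3 was highest for 15. The groups did not overlap for 9 of the 17 and overlapped for 8 (no overlap for 9.68% of all genes tested by edgeR). In the DMSO group, replicate 1 was highest for 13 of the 17.

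RPE65 (ENSDARG00000007480), the isomerase of the retinal pigment epithelium that remakes the visual chromophore, was at 0.682, 1.12 and 0.667 CPM after DMSO and 9.74, 3.18 and 9.28 CPM after UPHD25. The groups did not overlap, and replicate 2 was the lowest of the UPHD25 libraries. The means were 0.824 ± 0.259 and 7.40 ± 3.66 CPM (SD, n = 3), a ratio of 8.98, and edgeR's log2 fold change was 3.22 with a standard error of 0.51. Of the 3 identifiers that share this symbol, the other two stayed under 1 CPM in every library. The cone and rod homeobox factor crx (ENSDARG00000011989), which drives photoreceptor genes, was at 1.3, 0.187 and 0.5 CPM after DMSO and 4.87, 1.03 and 12.7 CPM after UPHD25. Here UPHD25 replicate 2 lay below DMSO replicate 1, so the groups overlapped, and the SD after UPHD25, 5.96 CPM, was nearly as large as the mean of 6.21 CPM. A second gene with this symbol, CRX (ENSDARG00000043483), was outside the rule by its level after DMSO. It was at 3.24, 1.59 and 1.67 CPM after DMSO and 11.1, 4.11 and 34.5 CPM after UPHD25, with the same order of the UPHD25 libraries.

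Genes of the phototransduction cascade showed the same order of libraries. CNGA3, a subunit of the cone cyclic nucleotide-gated channel, was at 0.784, 0.562 and 0.333 CPM after DMSO and 2.14, 1.77 and 8.15 CPM after UPHD25, without overlap. Without UPHD25 replicate 3 its log2 fold change was 1.77 against 2.80 with all libraries. RGS9, which speeds the shut-off of the photoresponse, was at 0.852, 0.281 and 0.667 CPM after DMSO and 2.99, 0.747 and 8.02 CPM after UPHD25, and UPHD25 replicate 2 lay within the DMSO range. The gene for its membrane anchor, rgs9bp, had the lowest mean after UPHD25 of the 129, at 0.856 CPM. The opsin kinase gene grk1b was at 0.341, 0.0936 and 0.333 CPM after DMSO and 1.83, 0.280 and 6.56 CPM after UPHD25.

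The 2 cone opsin genes among the 129 had at most 1 count in replicate 2 of either group. The red opsin gene opn1lw2 (ENSDARG00000044861) was at 0.818, 0 and 0.0834 CPM after DMSO and 3.75, 0 and 2.78 CPM after UPHD25. In pair 2 it had 0 counts in both libraries and met the ratio only because 0 is not below 2 times 0. For the green opsin gene opn1mw2 the DMSO libraries held 14, 0 and 2 counts and the UPHD25 libraries 58, 1 and 52, so that pair 2 rests on a single count. The opsin genes OPN1SW and opn1mw1 were outside the rule only by pair 2. OPN1SW was at 0.886, 1.03 and 1 CPM after DMSO and 40.6, 0.841 and 76.4 CPM after UPHD25. For opn1mw1 the levels were 0.0682, 0.0936 and 0 CPM, and 3.57, 0 and 20.1 CPM. The remaining opsin genes with an opn1 symbol stayed under 1 CPM in every library. The photoreceptor and retina group also held the photoreceptor genes rtbdn, rp1l1b, pcare2, SAMD7 and NXNL1. It further held the retinal receptor genes GRM6 (ON bipolar cells) and gabrr3b, and the retinal transcription factor genes BHLHE23 and SIX6. Of these, pcare2 was at 0.750, 0 and 0.417 CPM after DMSO and 2.81, 0.934 and 5.10 CPM after UPHD25, with every UPHD25 library above every DMSO library. BHLHE23 likewise had UPHD25 replicate 2 (1.59 CPM) above every DMSO library (0.417 to 1.33 CPM).

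The 7 lens genes had the largest median ratio of means of the groups, 11.2, at summed levels of 3.72, 1.03 and 2.42 CPM after DMSO and 23.1, 5.60 and 52.6 CPM after UPHD25. UPHD25 replicate 2 was the lowest of its group for all 7. The gene dnase1l1l (ENSDARG00000023861), a DNase gene of the lens in zebrafish, was at 1.12, 0.374 and 0.917 CPM after DMSO and 5.99, 1.21 and 20 CPM after UPHD25. Its groups did not overlap, but UPHD25 replicate 2 was only just above DMSO replicate 1, and the SD after UPHD25 (9.74 CPM) was larger than the mean (9.05 CPM).

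GJE1, a lens connexin gene, and HSF4, a heat shock factor needed for lens development in mammals, were each higher in every UPHD25 library than in any DMSO library. HSF4 was at 0.443, 0.0936 and 0.417 CPM after DMSO and 2.05, 0.934 and 4.38 CPM after UPHD25. A further 3 were crystallin genes. The gamma M crystallin gene crygm2d9 was counted 5, 0 and 0 times after DMSO and 68, 7 and 50 times after UPHD25, a ratio of means of 41.1 that rests on 5 counts in the DMSO group. Its near relative crygm5 was at 0.102, 0.0936 and 0.250 CPM after DMSO and 1.38, 0.560 and 4.18 CPM after UPHD25. The third, crybgx, was at 0.443, 0.0936 and 0 CPM after DMSO and 3.48, 0.374 and 3.45 CPM after UPHD25, with replicate 2 inside the DMSO range.

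The crystallin genes met by the rule were the low end of a larger family. Of 32 gamma M crystallin genes with a count, 20 were at least 2 times as high after UPHD25 in every pair. That count included all 15 with a mean of 1 CPM or more after DMSO, which the rule leaves out by their level, whereas 2 of the 17 under 1 CPM were among the 129. Near-identical crystallin copies may share reads, so single members of this family are uncertain.

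**Figure D3:**
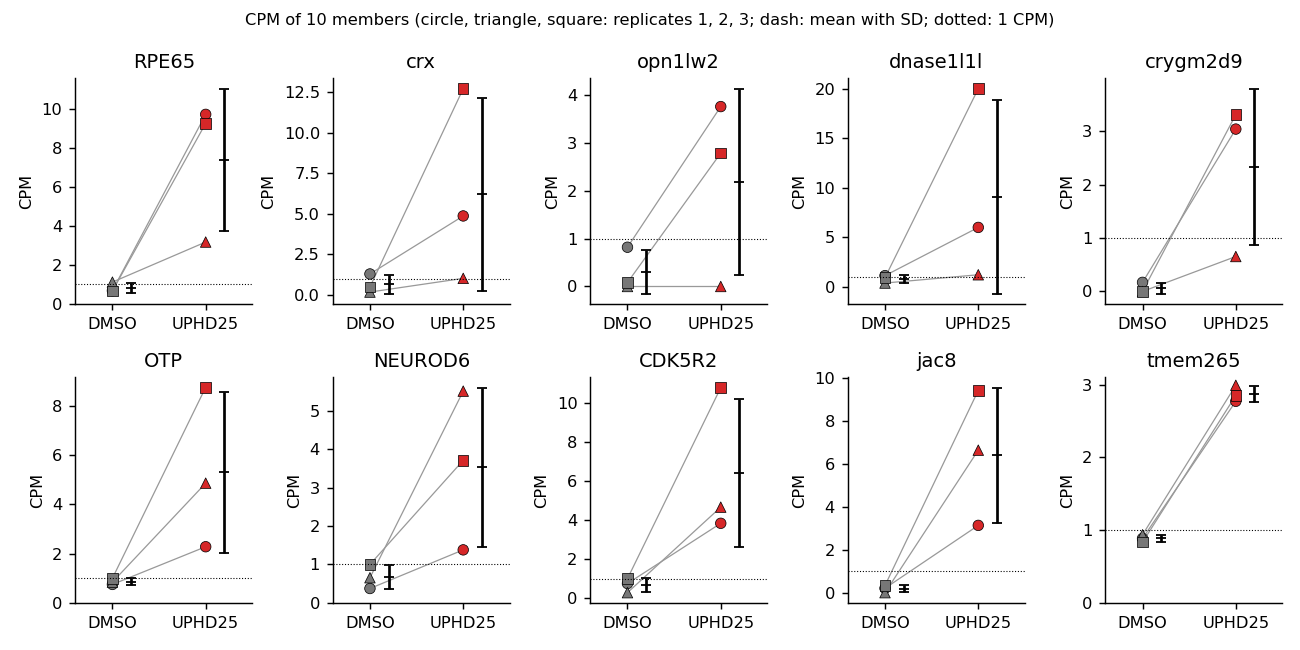
CPM of 10 of the 129 genes in each library (vertical axes, linear and scaled to each gene), with grey lines joining libraries of the same replicate number. Grey symbols are DMSO, red symbols UPHD25, dashes the mean with SD of 3 libraries, and the dotted line is 1 CPM. UPHD25 replicate 2 (triangle) is lowest for RPE65, crx, opn1lw2, dnase1l1l and crygm2d9, UPHD25 replicate 1 (circle) for OTP, NEUROD6, CDK5R2 and jac8, and the UPHD25 libraries of tmem265 lie together at 2.77 to 2.99 CPM.

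A wider list of retina and lens markers was higher after UPHD25 as well. The list had 41 symbols, of which 35 matched 47 genes, and it shared 3 genes with the 129 (RPE65, crx and opn1lw2). Of its 45 genes with a count, 16 had a mean under 1 CPM after DMSO. The other 29 had a mean of at least 1 CPM after DMSO, so by the rule none could be among the 129 genes. This cut was added after the data were seen, and the list was chosen with earlier results of these data known. The mean was higher after UPHD25 for all 29, and 22 were higher in every pair (75.9%, against 18.9% of all 16647 genes with a mean of at least 1 CPM after DMSO). The median ratio of means was 12, against 0.986 for all genes at that level. By edgeR's quasi-likelihood test 0 were called at an adjusted p under 0.05 and 27 had an unadjusted p under 0.05. Of all 16610 genes tested at that level, 1941 had an unadjusted p under 0.05 by the same test. DESeq2's Wald test called 19 of the 29, all higher, against 639 of all 18479 genes (3.46%), of which 518 were higher. Summed over the list the level was 742, 486 and 326 CPM after DMSO and 3780, 1270 and 11300 CPM after UPHD25. The pair ratios were 5.09, 2.61 and 34.7, and the ratio of the means was 10.5. It was also 10.5 without the 3 shared genes, and 4.88 without UPHD25 replicate 3. Removing the 3 shared genes could hardly change it. Without them the sum was still 739 CPM in DMSO replicate 1 and 11200 CPM in UPHD25 replicate 3.

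The defining markers of the list were not all higher in every pair. The cone transducin gene GNAT2 was at 3.44, 2.15 and 1.67 CPM after DMSO and 17.2, 1.68 and 77.5 CPM after UPHD25. Replicate 2 was thus lower after UPHD25 than after DMSO, and the other two pairs were higher. CRYAA, the gene of alpha A crystallin, was at 0.579, 0 and 0 CPM after DMSO and 0.581, 0.280 and 9.81 CPM after UPHD25. The beta crystallin gene crybb1l2, by contrast, was higher in every pair, at 108, 63.5 and 33.3 CPM after DMSO and 610, 196 and 1650 CPM after UPHD25. Eye markers thus moved with the 24 retina and lens genes described above, and the part that RNA from other tissue played in the levels of these genes was not tested.

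**Figure D4:**
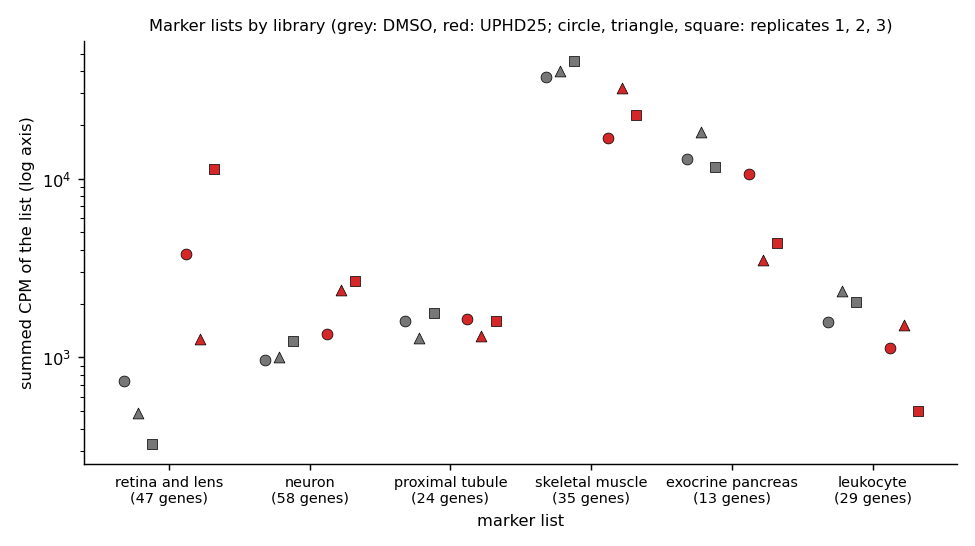
Summed CPM (vertical, log axis) of 6 marker lists in each library, grey for DMSO and red for UPHD25, with replicates 1, 2 and 3 as circle, triangle and square. The retina and lens list is higher in every UPHD25 library (1270 to 11300 CPM) than in any DMSO library (326 to 742 CPM), the PT list is level between the groups, and the skeletal muscle, exocrine pancreas and leukocyte lists have lower UPHD25 values. Lists not drawn include glia, intestine and epidermis, which were higher in UPHD25 replicate 3 than in any DMSO library. The glia list was higher in every UPHD25 library (583, 553 and 1520 CPM) than in any DMSO library (478, 416 and 495 CPM).

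The 13 transcription factor genes of the nervous system had a median ratio of means of 4.98. Their summed level was 5.25, 8.15 and 8.67 CPM after DMSO and 16.0, 36.5 and 53.3 CPM after UPHD25. UPHD25 replicate 1 was the lowest for 12 of the 13, unlike in the retina and lens groups. UPHD25 and DMSO did not overlap for 12 (9.68% of all genes tested by edgeR). OTP (ENSDARG00000058379), a homeobox gene of hypothalamic neurons, was at 0.750, 0.843 and 1.00 CPM after DMSO and 2.28, 4.86 and 8.75 CPM after UPHD25. The lowest UPHD25 library was above the highest DMSO library, and the means were 0.864 ± 0.127 and 5.29 ± 3.26 CPM (SD, n = 3).

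The POU factor gene pou3f2a (ENSDARG00000070220), active in neural precursors, was at 0.784, 1.22 and 0.750 CPM after DMSO and 1.79, 7 and 4.91 CPM after UPHD25. The bHLH gene NEUROD6 (ENSDARG00000040008), a factor of maturing neurons, was at 0.375, 0.655 and 1.00 CPM after DMSO and 1.38, 5.51 and 3.71 CPM after UPHD25. In both genes replicate 2 and not replicate 3 was the highest UPHD25 library, and the groups did not overlap. NPAS4 (ENSDARG00000087753), an early gene induced by neuronal activity in mammals, was at 0.204, 0.843 and 0.5 CPM after DMSO and 1.61, 3.74 and 5.24 CPM after UPHD25. Other identifiers with the symbols NPAS4, NEUROD6 and OTP were outside the rule by their level after DMSO. Their means were 60.6, 2.76 and 3.89 CPM after DMSO and 310, 11.4 and 13.2 CPM after UPHD25. The others included the homeobox genes POU3F2, otx2a, GSX1, DBX1 and nkx2.2b, the bHLH gene NEUROD2, the zinc finger gene FEZF1 and the corepressor gene skor2. DBX1, a gene of spinal progenitors, was counted 3, 0 and 2 times after DMSO and 6, 12 and 44 times after UPHD25, the largest ratio of means in the group at 16.0 and one that rests on 5 counts after DMSO.

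The 32 genes of neuronal signalling, channels and synapses had a median ratio of means of 3.80, below the 4.07 of all 129. Their summed level was 14.1, 15.8 and 21.0 CPM after DMSO and 43.9, 62.8 and 111 CPM after UPHD25. UPHD25 replicate 1 was the lowest for 22 and replicate 2 for 10. Between the groups 23 did not overlap (9.68% of all genes tested by edgeR). CDK5R2 (ENSDARG00000078671), an activator of the neuronal kinase CDK5, was at 0.750, 0.281 and 1.00 CPM after DMSO and 3.84, 4.67 and 10.8 CPM after UPHD25. The lowest UPHD25 level was well above the highest DMSO level, and the ratio of means was 9.51. Another identifier with this symbol was outside the rule, at a mean of 5.44 CPM after DMSO and 21.5 CPM after UPHD25.

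Genes of synapse formation included LRRC4, a leucine-rich adhesion protein gene, at 0.920, 0.374 and 1.33 CPM after DMSO and 2.55, 4.11 and 4.24 CPM after UPHD25. LRRC24, of the same repeat family, was at 0.545, 0.468 and 0.584 CPM after DMSO and 1.12, 3.64 and 3.91 CPM after UPHD25. The gene dab1b, whose mammalian counterpart carries the reelin signal in migrating neurons, was at 0.477, 0.374 and 0.5 CPM after DMSO and 2.19, 2.99 and 5.70 CPM after UPHD25. None of these 3 overlapped between the groups. For dab1b the log2 fold change was 2.5 without UPHD25 replicate 3 and 3.00 with all libraries.

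Transmitter receptors and their partners were represented by the glutamate receptor genes GRM8 and GRIK5, the receptor-associated genes NETO1, CNIH3 and FRRS1L, the serotonin receptor gene htr1aa, the opioid receptor gene OPRK1, the galanin receptor gene galr2b and the orphan receptor gene GPR139. GRM8 was at 0.682, 1.03 and 1.00 CPM after DMSO and 2.41, 2.24 and 6.16 CPM after UPHD25, and NETO1 at 0.886, 0.843 and 1.17 CPM and 1.79, 3.46 and 4.18 CPM. Channel genes included cacna1ib, HCN4, KCNJ3, KCNH5 and KCNH8. Of these, KCNH5 had the most even UPHD25 libraries, at 1.52, 1.87 and 1.79 CPM against 0.511, 0.374 and 0.584 CPM after DMSO. CALB1, a calcium-binding protein gene of many neurons, was at 1.06, 0.936 and 1.00 CPM after DMSO and 2.46, 2.15 and 4.18 CPM after UPHD25.

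A few of the neuronal genes were read in some pools and hardly at all in others. The melanin-concentrating hormone gene pmchl was counted 0, 5 and 8 times after DMSO and 0, 24 and 39 times after UPHD25, so that pair 1 had no count in either library. The gonadotropin-releasing hormone gene gnrh3, a marker of a small set of forebrain neurons, was counted 0, 6 and 0 times after DMSO and 3, 16 and 18 times after UPHD25. The transporter genes slc1a8a and slc1a8b, of the glutamate transporter family, had the order of the retina genes instead, with UPHD25 replicate 2 the lowest. For slc1a8b the levels were 0.307, 0.187 and 0.417 CPM after DMSO and 1.61, 0.747 and 5.44 CPM after UPHD25. The group also held the genes FBXO41, PRMT8, NPTX2, GFRA2, dclk2b, SEZ6 and OPN3.

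None of the 129 genes was in the list of neuron markers. That list had 54 symbols, of which 47 matched 58 genes, and 6 of its 56 genes with a count had a mean under 1 CPM after DMSO. Of the 50 genes tested, 46 were higher and 4 lower after UPHD25, with 25 above a log2 fold change of 1, a median of 1.01 and 0 called by edgeR (33 at an unadjusted p under 0.05, and 14 called by DESeq2, all higher). Over all genes tested the median was 0.03, and 7.64% were above 1. By edgeR's quasi-likelihood test, 2186 of these 17497 genes had an unadjusted p under 0.05. DESeq2's Wald test called 639 of all 18479 genes (3.46%), of which 518 were higher. The summed level of the list was 971, 1010 and 1240 CPM after DMSO and 1350, 2370 and 2680 CPM after UPHD25. UPHD25 replicate 1 was the lowest of its group, as it was for most of the 45 neural genes above. ELAVL3, an RNA-binding protein gene that defines neurons, was at 48.2, 84.1 and 88.0 CPM after DMSO and 54.6, 229 and 178 CPM after UPHD25. The ratio of the list's means was 1.99, and 1.74 without UPHD25 replicate 3. Neuron markers thus moved with the neural genes, and their part in the levels of those genes was not tested.

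The 30 other named genes had a median ratio of means of 3.60. The jacalin-related genes jac8 (ENSDARG00000076958) and jac9 (ENSDARG00000074983), by their symbols members of a lectin family, are neighbours on the chromosome. For jac8 there were 6, 0 and 4 counts after DMSO and 70, 71 and 142 counts after UPHD25, or 0.204, 0 and 0.333 CPM and 3.13, 6.63 and 9.41 CPM. Every UPHD25 library was far above every DMSO library, with a ratio of means of 35.6 and a log2 fold change of 5.06 (standard error 0.73). For jac9 there were 1, 0 and 1 counts after DMSO and 19, 14 and 63 counts after UPHD25. Its mean of 2.11 CPM after UPHD25 was at least 10.0-fold higher than the 0.211 CPM that 3 counts per DMSO library would give. Of the 9 genes of this family with a count, 6 were higher in every pair, and only these 2 met the rule.

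The other named genes differed in how even the UPHD25 libraries were. The gene tmem265 (ENSDARG00000095937), a transmembrane protein gene, was at 0.886, 0.936 and 0.834 CPM after DMSO and 2.77, 2.99 and 2.85 CPM after UPHD25. The means were 0.885 ± 0.0513 and 2.87 ± 0.111 CPM (SD, n = 3), the smallest spread beside its mean among the 10 genes plotted by library. BMP1 (ENSDARG00000028053), a metalloprotease gene of matrix assembly, was at 0.818, 0.843 and 1.08 CPM after DMSO and 2.90, 2.15 and 4.97 CPM after UPHD25, without overlap. The interferon-related gene ifi44f4 was at 0.443, 0.281 and 0.417 CPM after DMSO and 0.983, 1.21 and 1.19 CPM after UPHD25. The histone genes hist1h2a3 and histh1l2 were higher by ratios of means of 3.38 and 2.73. They belong to a family of near-identical copies, so their counts are uncertain.

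For some genes 1 library stood well above the rest. The endonuclease gene endou2 (ENSDARG00000020122) was at 1.02, 1.03 and 0.834 CPM after DMSO and 3.48, 2.33 and 13.5 CPM after UPHD25. Its log2 fold change was 2.76, and 1.62 without UPHD25 replicate 3. HOXB13, a homeobox gene of the posterior body, was at 0.477, 0.562 and 0.5 CPM after DMSO and 1.65, 1.31 and 8.62 CPM after UPHD25. The mucin gene muc2.2 was close to 0 in UPHD25 replicate 1, at 0.0893 CPM against 2.33 and 1.33 CPM in replicates 2 and 3, and its only 5 counts after DMSO were in replicate 3.

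The 30 genes without a gene name resembled the named ones in level and spread. Their median ratio of means was 3.66, and their summed level was 15.9, 14.4 and 19.8 CPM after DMSO and 45.8, 52.9 and 96.0 CPM after UPHD25. The groups did not overlap for 20 of them (9.68% of all genes tested by edgeR). The one with the largest ratio of means, ENSDARG00000102288, was counted 18, 0 and 3 times after DMSO and 98, 4 and 116 times after UPHD25. With replicate 2 lowest in both groups, it had the order of libraries seen in the retina genes.

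The spread of a gene's level over the 3 UPHD25 libraries, given here as a description, was unlike between the eye genes and the neural genes. The groups were made by hand after these values were seen. The sorting may therefore bear on the contrast, and nothing is read from it. Of a gene's CPM summed over the UPHD25 libraries, replicate 2 held a median of 10.9% for the photoreceptor and retina genes and 9.15% for the lens genes. It held 30.6% for the neural transcription factor genes and 30.1% for the neuronal signalling genes. Replicate 1 held 27.2% and 27.9% for the eye groups and 13.8% and 20% for the neural groups, while replicate 3 held 51.1% to 62.4% in all 4. Without UPHD25 replicate 3, 86 genes met the rule, of which 61 were among the 129. Both remaining UPHD25 libraries then had to reach 1 CPM, which with all libraries in use 64 of the 129 did. These 61 included 5 of the 17 retina genes, 2 of the 7 lens genes, 7 of the 13 neural transcription factor genes and 16 of the 32 neuronal signalling genes. Without the other libraries in turn, the number meeting the rule was 235 (UPHD25 replicate 1), 210 (UPHD25 replicate 2), 285 (DMSO replicate 1), 280 (DMSO replicate 2) and 176 (DMSO replicate 3). In each case only 2 pairs had to meet the ratio. Without a UPHD25 library both that remained had to reach 1 CPM, whereas without a DMSO library 2 of the 3 UPHD25 libraries were enough.

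**Figure D5:**
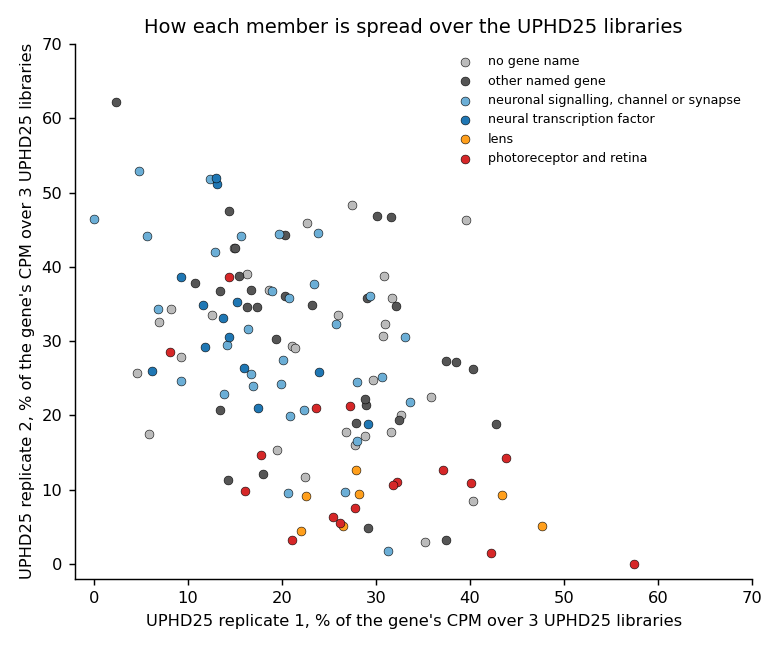
Each of the 129 genes by the percentage of its CPM, summed over the 3 UPHD25 libraries, that was in replicate 1 (horizontal) and in replicate 2 (vertical). Colours are the groups, which were made by hand after the values were seen. The lens genes lie low, at 4.4% to 12.7% in replicate 2, and the neural transcription factor genes higher, at 18.9% to 52.0%, while replicate 1 held 22% to 47.6% of the lens genes and 6.2% to 29.2% of the neural transcription factor genes.

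The highest library of each gene was also compared by replicate number. The highest DMSO library was replicate 3 for 67 of the 129 genes, replicate 1 for 36 and replicate 2 for 26. For the eye genes it was replicate 1 in 19 of 24, and for the neural genes in 3 of 45. The highest UPHD25 library had the same number as the highest DMSO library for 69 of the 129 genes, for 23 of the 32 neuronal signalling genes and for 4 of the 17 retina genes. UPHD25 replicate 3 was highest for 100 of the 129, so many matches would arise from that library alone. The share over all genes is not given, and nothing is read from these counts.

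By gene family as read from the symbols, transcription factors made up 9.30% of the 129 genes, ion channels 8.53%, G protein-coupled receptors 6.98% and crystallins 2.33%. Among the 768 genes with a mean under 1 CPM after DMSO that reached 1 CPM in at least 2 UPHD25 libraries, of which 16.8% met the rule, the same families made up 6.64%, 7.03%, 4.56% and 0.911%. Genes of the extracellular matrix, the cytoskeleton, lipid or drug metabolism and proteases, as read from the symbols, numbered 0 among the 129, against 7, 17, 12 and 2 of the 768. BMP1, a protease gene by function, was counted there as a secreted signal. The symbols also missed the transcription factor genes OTP, crx, FEZF1, DBX1, NPAS4 and HSF4 and the corepressor gene skor2 described above. The 9.30% is therefore too low for transcription factors by function, and the 6.64% may be too low as well. The families were small, and nothing is called particular to the 129 genes from these shares.

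The 129 genes were scattered over the genome. Of them, 92 matched a single protein-coding gene of RefSeq on the assembly GRCz12tu, which is not the build of the counts and was used for gene order only. They lay on 25 chromosomes, with at most 9 on any of them. Matched by symbol, only jac8 with jac9 and NPAS4 with tmem265 were direct neighbours. Between pcare2 and a gene of placeholder symbol, and between CNIH3 and PTCHD4, lay 1 gene. The symbol NPAS4 is shared with another identifier, so its matched position may be that of the other copy. The genes NPAS4 (ENSDARG00000087753) and tmem265 differed in their spread, at 1.61 to 5.24 CPM and 2.77 to 2.99 CPM over the UPHD25 libraries.

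The same rule with the groups exchanged gave 8 genes, or 0.0912% of the 8774 genes with a mean under 1 CPM after UPHD25. Among the 252 of these that reached 1 CPM in at least 2 DMSO libraries, that was 3.17%, against 16.8% in the direction of UPHD25. Those with a gene name were TRPV6, a calcium channel gene, PSMC6, a proteasome subunit gene, mfap4.9 and ctrb.3, a chymotrypsinogen gene of the exocrine pancreas. For ctrb.3 the DMSO libraries held 168, 285 and 53 counts and the UPHD25 libraries 42, 4 and 8. The exocrine pancreas list was also lower after UPHD25, at a ratio of means of 0.436. Without UPHD25 replicate 3, 36 genes met the exchanged rule and 86 the rule itself, so the numbers lay closer together. The conditions were unlike, since 2 of the 3 DMSO libraries were then enough for the 36. For the 86, both remaining UPHD25 libraries had to reach 1 CPM. Among genes with a mean of 1 CPM or more after DMSO, 218 of 16647 (1.31%) were at least 2 times as high after UPHD25 in every pair. The near-silent genes of the rule (1.37%) also had to reach 1 CPM in at least 2 UPHD25 libraries. The 1.31% and 1.37% are therefore shares under unlike conditions and are not compared.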

How the data were processed

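RNA-seq of 3 pools per group was analysed. The authors deposited raw counts per gene. Per the labels and the methods, paired-end reads from a stranded mRNA kit were aligned with HISAT2 2.1.0 to danRer11 and counted with featureCounts. The annotation release, the strand option and the handling of reads that map to several genes are not given in the sources used here, so overlapping and near-identical genes are uncertain. Columns were assigned by the labels, with 0 left unassigned. Of 32520 identifiers, 29201 had a symbol in the table of gene names. Marker lists were matched by symbol, then without a copy suffix.

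CPM used TMM factors over the 26081 genes with a count. The groups were compared with edgeR 4.0.16 under R 4.3.3 (quasi-likelihood, two-sided, filterByExpr, group only, Benjamini-Hochberg over 17497 genes), tested on simulated data. The common biological coefficient of variation was 0.314. Alternatives were DESeq2 1.42.0, edgeR's likelihood ratio test, other scalings, filters and limits of the rule, thinned counts, the replicate block, and each library left out. List sums without shared genes and 1 CPM in UPHD25 replicates 1 and 2 both were added after seeing the data, as were list values over genes with a mean of at least 1 CPM after DMSO.

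The genes and lists were chosen with earlier results of these data known. Named were genes with a symbol that had the 12 highest mean or lowest-library CPM after UPHD25, that were in a marker list, that had at most 3 counts in each DMSO and at least 10 in each UPHD25 library, that neighboured or shared a family with another, or that lay nearest a limit. Other names were chosen after their values were seen. A few genes that the rule names are not reported here. CPM is not corrected for gene length.

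The rule paired libraries by replicate number, which is all that the labels give, while the main edgeR test used the group only. Same-numbered libraries shifted together from their group means (r of 0.495, 0.293 and 0.211 across genes for replicates 1, 2 and 3). Values for libraries of different numbers are not given here, so whether the numbers mark shared batches was not tested. The study states that the experiment was repeated, and p-values measure the spread between these pools. Counting floors of 3 counts cover counting error only.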

Additional observations from a re-analysis of the deposited data

How the results depend on the processing

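The number of genes meeting the rule was 129. It was 127 to 166 with other scalings, thinned counts (147 genes, 81 of them shared), and minimum counts. It was 61 with a DMSO ceiling of 0.5 CPM and 201 with 2 CPM, 272 with a pair ratio of 1.5 and 37 with 3, 63 with 1 CPM in all 3 UPHD25 libraries, 64 with 1 CPM in UPHD25 replicates 1 and 2 both, and 32 with the lowest UPHD25 library at least 2 times the highest DMSO library and no pairing. With each library left out in turn it was 86 to 285: 86 without UPHD25 replicate 3, 235 and 210 without UPHD25 replicates 1 and 2, and 285, 280 and 176 without DMSO replicates 1, 2 and 3. With a UPHD25 library left out, both that remained had to reach 1 CPM, whereas with a DMSO library left out 2 of 3 were enough. How far these conditions set the counts was not tested. With the groups exchanged, 8 genes became 16 with a ceiling of 2 CPM, 28 with a ratio of 1.5, and 4 each with a ratio of 3, all 3 libraries, or no pairing. With a library left out the exchanged number was 10 to 52, and it was 36 without UPHD25 replicate 3. edgeR's quasi-likelihood test called 0 genes (2186 at an unadjusted p under 0.05). With the replicate block it called 0 (2722 unadjusted), and with each library left out 0 to 1, the 1 being without UPHD25 replicate 2. edgeR's likelihood ratio test called 558, DESeq2's Wald test 639 and DESeq2 with the replicate block 767, and the cause was not tested. Of 268 alternative log2 fold changes of 24 named genes, 259 moved by less than the spread between replicates, 9 moved by more and 0 reversed, over a range of 1.22 to 5.50. Without UPHD25 replicate 3, dab1b, CNGA3, endou2, BMP1 (1.90 to 1.51), CALB1 (1.57 to 1.22) and GRM8 (2.05 to 1.42) fell by more than that spread. The other larger moves were upward, for BHLHE23 and pcare2 without DMSO replicate 1 and for tmem265 with library totals. All 24 genes were among the 129, and the rule asks for a doubling in every pair. That 0 reversed was thus all but fixed in advance, and nothing is read from it. Scaling by library totals in place of TMM moved the median log2 fold change over genes tested from 0.03 to 0.15, and the median of the 89 fitted genes of the rule from 1.91 to 2.08. Depth limits these low levels, as 3 counts stood for 0.102 to 0.281 CPM.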
